A study of Mus musculus with 4 samples.

Results

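The postsynaptic density is the protein-rich layer beneath the receptors of excitatory synapses, and dendritic spines are the small protrusions of dendrites that carry most of these synapses. A set of 36 genes for its scaffolds, linkers, signalling proteins and spine cytoskeleton was followed here in RNA of cells isolated as cortical astrocytes from mice with floxed Ezh2 alleles, with or without their conditional deletion. Its members were chosen by name, as rows of the deposited table, and each of the 36 was found once among 29224 genes. The set holds Ddn, the gene for dendrin, whose place among genes of similar function was examined. RNA was sequenced from the cerebral cortex of mice at postnatal day 5, after cells were pulled out with magnetic beads directed at GLAST, the glutamate transporter that astrocytes carry on their surface. The groups were Ezh2 f/f mice, which carry floxed Ezh2 alleles (2 libraries), and Ezh2 cKO mice, which carry the same alleles and Cre recombinase driven by Aldh1l1, a gene of astrocytes (2 libraries). Both groups share the floxed alleles, and Cre sets them apart. Nothing states that the libraries of a group came from separate animals, so p-values measure the spread between these samples, which may be technical.

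In the postsynaptic density, DLG proteins, of which PSD-95 is the best known, hold glutamate receptors and adhesion molecules in place. DLGAP proteins link them to SHANK proteins, and SHANK and HOMER proteins form a deeper lattice that reaches to metabotropic receptors and actin. LIN7 proteins are small adaptors for membrane proteins, and around the scaffold lie regulators of small GTPases and of actin, which set the shape of the spine. Neurons are the textbook source of most of these transcripts, although several, such as Dlg1 and Sorbs2, are used in many tissues. EZH2 is the enzyme of Polycomb repressive complex 2, which places the repressive mark H3K27me3 and is known to act mostly at promoters rich in CpG dinucleotides.

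Total counts were between 16273308 and 17522152 per library. Ezh2 itself was counted 434 and 327 times in Ezh2 f/f, against 211 and 164 times in Ezh2 cKO, a lower but not absent level, in the direction of the labels. Each of the 36 genes passed the filter on low counts, and the lowest value of any of them in any library was 38 counts, for Lin7a. The 2 groups were tested against each other in edgeR (quasi-likelihood) on 16793 genes, with Benjamini-Hochberg adjustment, and a gene was called at an adjusted p under 0.05. All adjusted p-values given are of that test, and SE is its standard error of the log2 fold change. A positive fold change means more in Ezh2 cKO, and levels are FPKM, which are counts per length of the gene and per size of the library. Although the cells were isolated as astrocytes, neuronal transcripts were abundant. The summed FPKM of 10 astrocyte markers was between 117 and 422 per library. That of 10 young neuron markers was between 3807 and 5709, and that of 10 mature neuron markers between 252 and 799. Such sums depend on the level of the genes listed, with Tubb3 and Nnat large parts of the young neuron sum. They do not give shares of cells. In bulk RNA such as this, fewer cells of a type and less RNA per cell cannot be told apart.

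Because CpG-rich promoters are where Polycomb complexes are known to act, the 250 bases before the start of the members were read from RefSeq promoters on GRCm38.p6. The table held 50 promoters for 28 of the 36 genes. Some genes gave several windows, and some windows of Begain and those of Cnksr2 share bases. The 50 windows are therefore not separate items in the medians and motif shares below. Ddn, Thy1, Dlgap2, Shank1, Shank2, Synpo, Ppp1r1b and Nsmf had no entry. Synpo, Ddn and Thy1 had among the largest changes of the set, so the promoter values do not cover them. The median CpG count of the 50 windows was 13.5 and the median GC content 62.2%, against 6 and 52.4% over 32851 promoters. The observed over expected CpG ratio had a median of 0.66, against 0.37 over all promoters. Windows of 3 genes that lie outside annotated exons are printed here with each CpG in capitals, since their genes differed widely in response. They are those of Icam5 (chr9:21031788-21032037, plus strand, 16 CpG), which had the largest change of the set, Shank3 (chr15:89499358-89499607, plus strand, 31 CpG), which had a smaller one, and Prr7 (chr13:55464017-55464266, plus strand, 22 CpG), whose groups overlapped.
Icam5: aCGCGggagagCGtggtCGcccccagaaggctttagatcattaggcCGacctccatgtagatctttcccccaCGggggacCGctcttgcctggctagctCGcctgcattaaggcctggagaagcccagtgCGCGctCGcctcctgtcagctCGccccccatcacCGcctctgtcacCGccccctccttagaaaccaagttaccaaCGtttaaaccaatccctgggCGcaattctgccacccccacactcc
Shank3: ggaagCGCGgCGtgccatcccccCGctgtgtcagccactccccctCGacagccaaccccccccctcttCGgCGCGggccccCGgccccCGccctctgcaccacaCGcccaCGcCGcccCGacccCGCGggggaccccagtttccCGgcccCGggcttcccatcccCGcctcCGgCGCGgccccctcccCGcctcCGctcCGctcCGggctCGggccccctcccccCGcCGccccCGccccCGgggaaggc
Prr7: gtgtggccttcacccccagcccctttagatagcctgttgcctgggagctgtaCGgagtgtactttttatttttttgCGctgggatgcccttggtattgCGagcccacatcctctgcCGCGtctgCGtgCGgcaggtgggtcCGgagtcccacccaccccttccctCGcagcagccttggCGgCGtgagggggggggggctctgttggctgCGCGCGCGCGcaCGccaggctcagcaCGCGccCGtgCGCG
All 3 printed windows held more CpG than the median promoter, and Prr7 held more than Icam5. They were picked from more windows outside exons, among which that of Spock1 held 20 CpG, that of Agap2 6 and that of Dlgap3 2. The 3 therefore do not stand for the set. Among 4 motifs searched on both strands, none of which contains another, GGGCGG, a GC box, was found in 26 of the members' 50 windows (52.0%, against 32.7% of all promoters). The E-box CAGCTG was in 9 windows (18%, against 13.0%), TATAAA in 5 (10%, against 12.4%) and the cAMP response element TGACGTCA in 0 (against 1.55%). A match is a description of the letters only.

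Of the 36 genes, 30 were higher in the Ezh2 cKO libraries, 1 was lower and 5 did not pass the threshold. Among all 16793 genes tested, 34.7% were called higher and 33.6% lower, so calls were frequent in these libraries. The members' 83.3% higher and 2.78% lower are read against those shares. Members, and the lists below, were chosen with earlier results of these data known. The difference from those shares is therefore a description and was not tested. The median log2 fold change of the members was 0.85, beside 0.02 over all genes tested. With the added condition of at least a 2-fold change, 14 members were higher (38.9%, against 19.0% of all genes tested). Both Ezh2 cKO libraries lay above both Ezh2 f/f libraries in FPKM for 31 members, against 46.0% of all genes tested, and below them for 1, against 38.2%. The summed FPKM of the 36 genes was 943 and 945 in Ezh2 f/f, against 1936 and 1857 in Ezh2 cKO. Ddn and Thy1 made up 5.16% and 5.11% of that sum in Ezh2 f/f, against 22.7% and 23.4% in Ezh2 cKO.

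**Figure D1:**
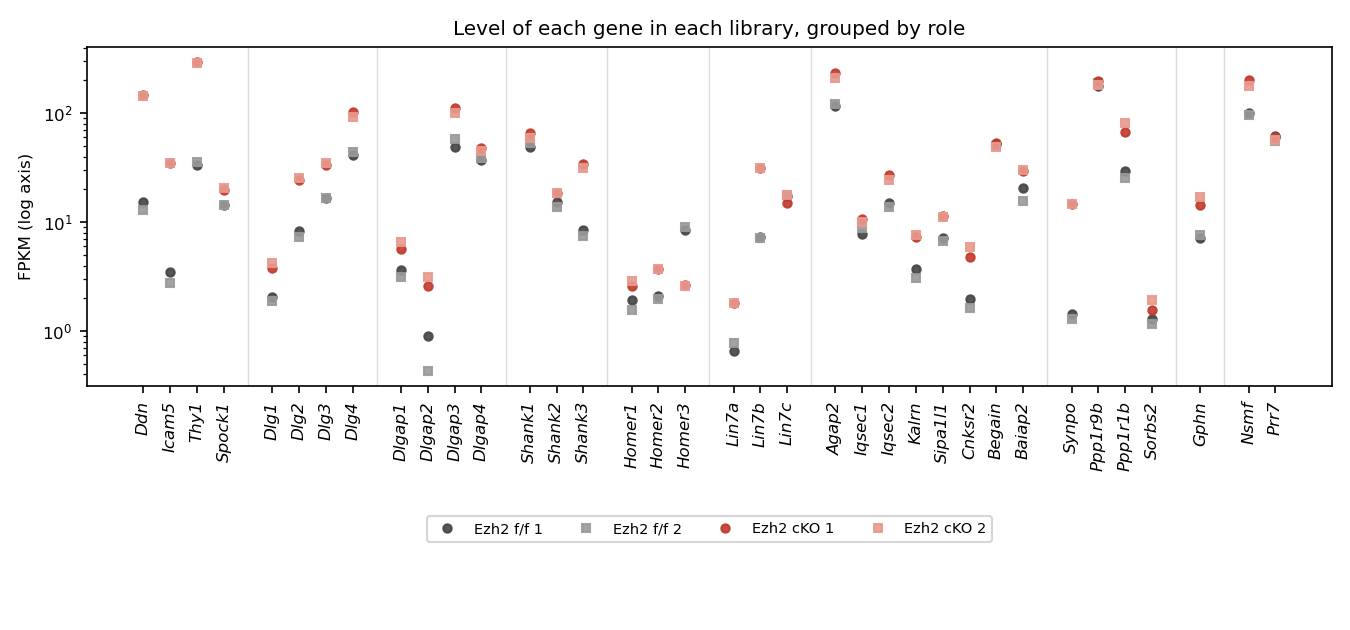
FPKM (vertical log axis) of each of the 36 genes in each of the 4 libraries, grouped by role from left to right: surface and dendrite genes, DLG, DLGAP, SHANK, HOMER, LIN7, GTPase regulators, actin and phosphatase regulators, the inhibitory scaffold, and synapse to nucleus. Ezh2 cKO points (red) lie above Ezh2 f/f points (grey) for 31 genes and below them for Homer3.

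The widest changes were in 4 genes that are not core scaffolds, namely Icam5, Synpo, Ddn and Thy1. Ddn, which encodes a protein of dendrites and of postsynaptic sites that binds cytoskeletal partners, lies on the minus strand of chromosome 15 from 98701658 to 98707371. These and other gene coordinates are those of the deposited table, whose build is not settled: the submitters' notes name mm9, and 28218 of 28799 genes with an identifier in GENCODE M21 lie elsewhere on GRCm38. Ddn was counted 1004 and 795 times in Ezh2 f/f, against 9601 and 9075 in Ezh2 cKO. Its FPKM was 15.2 and 12.9 in Ezh2 f/f, against 147 and 144 in Ezh2 cKO. The groups were far apart and the libraries within each close, with a log2 fold change of 3.29 (SE 0.10, adjusted p = 2.49e-11). By size of change Ddn was the third of the 36, with 2 members above it, and 243 of all genes tested (1.45%) had a larger change. By FPKM it moved from rank 18 among the 36 genes in Ezh2 f/f to rank 5 in Ezh2 cKO.

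Icam5 encodes telencephalin, an adhesion molecule on the dendrites of forebrain neurons, and is listed on chromosome 9 from 20943369 to 20950332. Its FPKM was 3.51 and 2.75 in Ezh2 f/f, against 34.8 and 34.6 in Ezh2 cKO (log2 fold change 3.38, SE 0.12, adjusted p = 6.43e-11). Synpo encodes synaptopodin, an actin-binding protein of the spine apparatus. It stood at 1.45 and 1.29 FPKM in Ezh2 f/f, against 14.8 and 14.6 in Ezh2 cKO (log2 fold change 3.34, SE 0.11, adjusted p = 4.14e-11). Thy1, a cell surface glycoprotein of mature neurons and also of T cells, is listed on chromosome 9 from 43954681 to 43959876. It went from 33.5 and 35.4 FPKM to 293 and 291 (log2 fold change 3.00, SE 0.09, adjusted p = 1.75e-11). Thy1 thereby took the first rank by FPKM among the 36 genes in Ezh2 cKO, from rank 10 in Ezh2 f/f. The 95% intervals of Icam5 (3.13 to 3.64), Synpo (3.10 to 3.57) and Ddn (3.07 to 3.50) overlapped, so their order was not resolved, whereas no gene below Thy1 (2.81 to 3.18) had an interval reaching theirs. Spock1, a matrix proteoglycan gene placed with them for its neuronal surface role, had a far smaller change, from 14.4 and 14.5 FPKM to 19.6 and 20.8 (log2 fold change 0.40, SE 0.09, adjusted p = 0.00113).

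**Figure D2:**
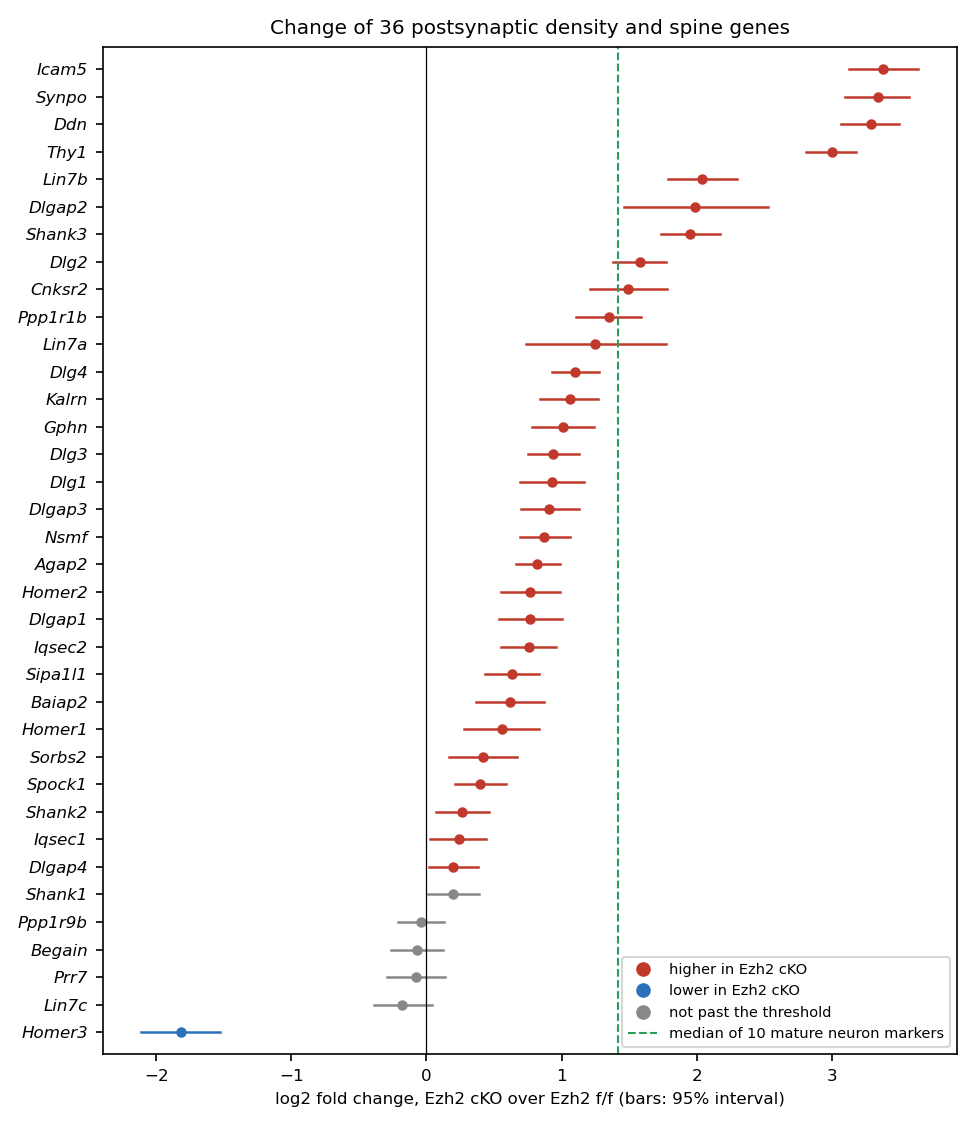
Log2 fold change of each of the 36 genes, Ezh2 cKO over Ezh2 f/f, ordered by size, with 95% intervals from edgeR as bars and the call as colour. The 4 genes at the top, Icam5, Synpo, Ddn and Thy1, stand apart from the next, Lin7b at 2.04, and Homer3 stands apart at -1.82; the dashed line marks 1.42, the median of the mature neuron markers.

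Among DLG scaffolds, all 4 were higher, against 34.7% of all genes tested. Dlg4, which encodes PSD-95, had 41.6 and 44.4 FPKM in Ezh2 f/f, against 102 and 93.4 in Ezh2 cKO (log2 fold change 1.10, SE 0.08, adjusted p = 4.01e-08). Dlg2, which encodes PSD-93, had the largest change of the family, from 8.38 and 7.38 FPKM to 24.4 and 25.4 (log2 fold change 1.58, SE 0.09, adjusted p = 3.71e-09). Dlg3, for SAP102, a scaffold known to be prominent at young synapses, went from 16.5 and 16.8 FPKM to 33.2 and 34.6 (0.94, SE 0.09), and Dlg1, for the broadly expressed SAP97, from 2.07 and 1.88 to 3.76 and 4.23 (0.93, SE 0.11). The make-up of the family moved little. The share of Dlg4 in the summed FPKM of the family was 60.7% and 63.0% in Ezh2 f/f, against 62.5% and 59.3% in Ezh2 cKO, which overlap. Dlg3 made up 24.0% and 23.8% against 20.3% and 22.0%, and Dlg2 12.2% and 10.5% against 14.9% and 16.1%, so the young-synapse scaffold held slightly less of the family in Ezh2 cKO and Dlg2 slightly more.

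All 4 DLGAP linker genes were higher too (against 34.7% of all genes tested), over a wide range. Dlgap3, the most abundant of them, went from 49.0 and 57.6 FPKM to 112 and 101 (log2 fold change 0.91, SE 0.10, adjusted p = 1.87e-06). Dlgap1 went from 3.66 and 3.13 FPKM to 5.70 and 6.57 (0.77, SE 0.11). The least abundant, Dlgap2, was counted 98 and 43 times in Ezh2 f/f, against 276 and 319 in Ezh2 cKO, with a log2 fold change of 1.99 whose 95% interval ran from 1.46 to 2.53, the widest of the set with that of Lin7a. Its Ezh2 f/f libraries stood apart from each other, and leaving out replicate 1 of them gave 2.63, leaving out replicate 2 gave 1.55. Dlgap4 had 37.5 and 38.8 FPKM in Ezh2 f/f, against 47.6 and 45.4 in Ezh2 cKO, and its change was the smallest of those called (0.20, SE 0.08, adjusted p = 0.0447). That call was lost under 9 of the 14 alternative fits, including those that left out any one library (0.15 to 0.25). Dlgap4 held 41.2% and 38.8% of the family's FPKM in Ezh2 f/f and a smaller 28.4% and 29.1% in Ezh2 cKO, while Dlgap3 held 53.8% and 57.6% in Ezh2 f/f, against 66.6% and 64.7% in Ezh2 cKO.

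The 3 SHANK genes, which encode the large scaffolds beneath the DLGAP layer, did not move alike. Shank3, listed on chromosome 15 from 89383826 to 89444464, had 8.49 and 7.49 FPKM in Ezh2 f/f, against 34.4 and 31.2 in Ezh2 cKO. Its log2 fold change was 1.95 (SE 0.10, adjusted p = 1.41e-09). Shank2 went from 15.2 and 13.7 FPKM to 18.4 in both Ezh2 cKO libraries (0.26, SE 0.09, adjusted p = 0.0171), a call that was lost without Ezh2 f/f replicate 2 (0.18), Ezh2 cKO replicate 1 (0.25) or Ezh2 cKO replicate 2 (0.28). Shank1, the most abundant, had 49.3 and 53.8 FPKM in Ezh2 f/f, against 66.2 and 58.9 in Ezh2 cKO, and did not pass the threshold (log2 fold change 0.20, 95% interval 0.01 to 0.39, adjusted p = 0.0614). Shank1 did pass under 6 of the 14 alternative fits, with log2 fold changes from 0.23 to 0.30, among them the fits that left out Ezh2 f/f replicate 2 (0.25) or Ezh2 cKO replicate 2 (0.30). The interval of Shank3 (1.74 to 2.17) lay wholly above those of Shank2 (0.07 to 0.46) and Shank1. In make-up, Shank3 held 11.6% and 9.99% of the family's FPKM in Ezh2 f/f, against 28.9% and 28.7% in Ezh2 cKO, and Shank1 67.6% and 71.7% against 55.7% and 54.3%.

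HOMER was the family in which members moved in opposite directions. Homer proteins bind group I metabotropic glutamate receptors and SHANK, and Homer1 also gives rise to a short activity-induced form, which gene-level counts cannot separate. Homer3, listed on chromosome 8 from 70735477 to 70747011 on the plus strand, was the only member called lower. It was counted 509 and 507 times in Ezh2 f/f, against 157 and 150 in Ezh2 cKO, or 8.44 and 9.06 FPKM against 2.63 and 2.61. The log2 fold change was -1.82 (SE 0.14, adjusted p = 4.98e-08), and of all genes tested 95.8% had a higher value. Homer2 rose from 2.09 and 1.99 FPKM to 3.69 and 3.70 (0.77, SE 0.10, adjusted p = 1.44e-05), and Homer1 from 1.92 and 1.56 to 2.58 and 2.86 (0.56, SE 0.13, adjusted p = 0.00150). Homer3 thus went from 67.8% and 71.8% of the family's FPKM to 29.6% and 28.5%, and Homer2, with 41.4% and 40.3%, was the largest share in Ezh2 cKO. The summed FPKM of the family was 12.5 and 12.6 in Ezh2 f/f, against 8.91 and 9.17 in Ezh2 cKO, the only one of the 5 families whose sum was lower in Ezh2 cKO. Homer3 overlaps Ddx49, an RNA helicase gene on the other strand, by 1496 bases. Ddx49 was counted 1074 and 942 times in Ezh2 f/f, against 536 and 496 in Ezh2 cKO (log2 fold change -1.06, SE 0.10). Whether reads were counted by strand is not given in the sources used here, and the part of Ddx49 in the Homer3 value was not tested.

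**Figure D3:**
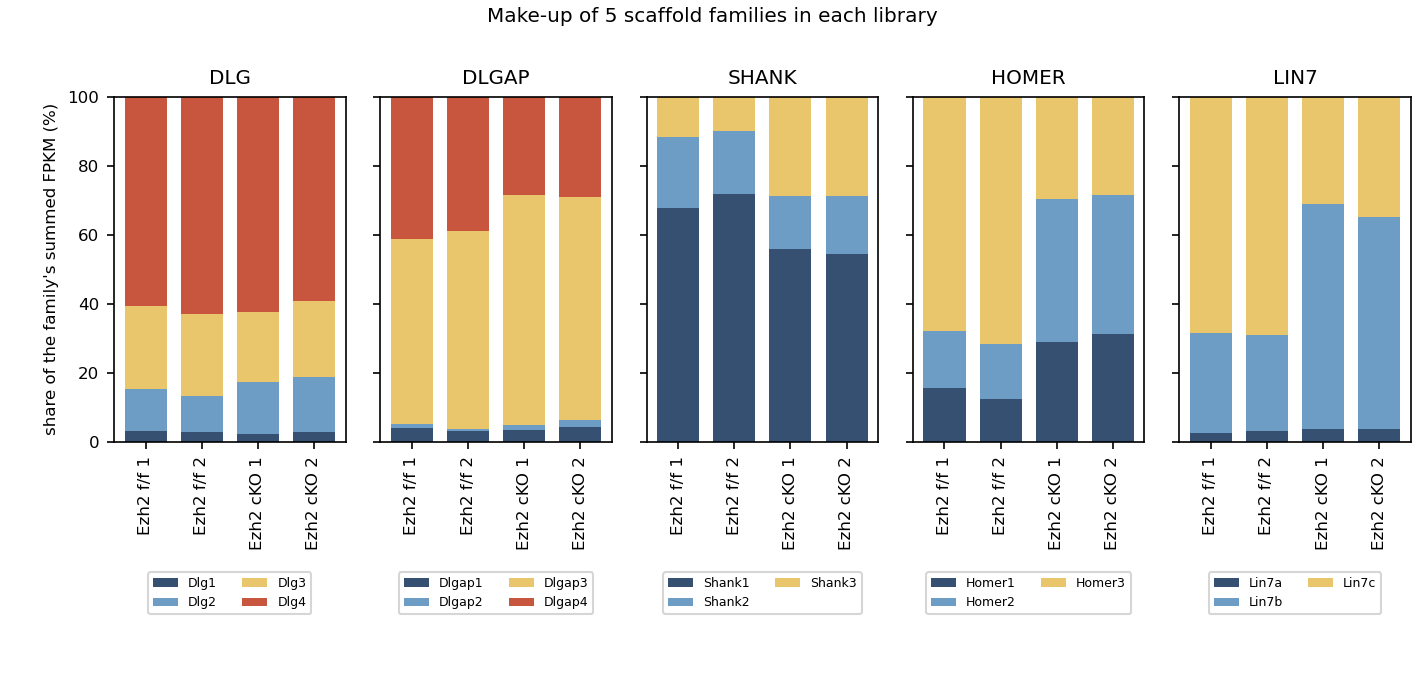
Share of the summed FPKM of each of 5 scaffold families (vertical axis, %) taken by each gene of the family, as stacked bars for each of the 4 libraries. Homer3, Lin7c and Shank1 held the largest share in Ezh2 f/f; in Ezh2 cKO Homer2 and Lin7b led their families while Shank1 still led SHANK, and the DLG family kept nearly the same make-up.

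The 3 LIN7 genes encode PDZ adaptors for membrane proteins on both sides of the synapse. Of these, 2 were higher, against 34.7% of all genes tested. Lin7b had 7.29 and 7.18 FPKM in Ezh2 f/f, against 31.6 and 31.7 in Ezh2 cKO (log2 fold change 2.04, SE 0.12, adjusted p = 4.43e-09). Lin7a, with 0.655 and 0.779 FPKM against 1.81 in both Ezh2 cKO libraries, had a log2 fold change of 1.25 (SE 0.24, adjusted p = 3.61e-04). Lin7c had 17.4 and 17.7 FPKM in Ezh2 f/f, against 15.0 and 17.9 in Ezh2 cKO, and its groups overlapped (log2 fold change -0.18, 95% interval -0.39 to 0.04, adjusted p = 0.142). The lead in the family therefore passed from Lin7c, with 68.6% and 69.0% in Ezh2 f/f, to Lin7b, with 65.2% and 61.7% in Ezh2 cKO. Lin7b also overlaps the noncoding gene Gm45619 on the other strand, which was counted 43 and 41 times in Ezh2 f/f, against 81 and 71 in Ezh2 cKO.

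Regulators and adaptors of small GTPases, which control actin and receptor traffic in the spine, were higher in 7 of 8 cases (against 34.7% of all genes tested). Cnksr2, a scaffold of Ras signalling, went from 1.97 and 1.62 FPKM to 4.77 and 5.97 (log2 fold change 1.49, SE 0.13, adjusted p = 2.65e-07). Kalrn, for the Rac activator kalirin that enlarges spines, went from 3.69 and 3.08 FPKM to 7.27 and 7.67 (1.06, SE 0.10, adjusted p = 5.34e-07). Agap2, an Arf GTPase-activating protein gene, was the second most abundant member in both groups, with 117 and 121 FPKM against 232 and 213 (0.82, SE 0.08, adjusted p = 4.81e-07). Iqsec2, an Arf6 exchange factor of the postsynaptic density, rose by a log2 fold change of 0.76 from 15.0 and 13.9 FPKM to 27.1 and 24.6. Its relative Iqsec1 was counted 2173 and 2274 times in Ezh2 f/f, against 2938 and 2668 times in Ezh2 cKO, and its call (0.24, SE 0.10, adjusted p = 0.0408) was lost under 8 of the 14 alternative fits, among them those without Ezh2 f/f replicate 1 (0.15), Ezh2 cKO replicate 1 (0.18) or Ezh2 cKO replicate 2 (0.30). Sipa1l1, for the Rap regulator SPAR, rose by 0.63, from 7.20 and 6.67 FPKM to 11.5 and 11.2. Baiap2, for the membrane-bending protein IRSp53, rose by 0.62, from 20.8 and 15.8 FPKM to 29.3 and 30.4. Begain, which encodes a partner of the PSD-95 guanylate kinase domain, had 51.9 and 49.7 FPKM in Ezh2 f/f, against 53.1 and 49.3 in Ezh2 cKO, and its groups overlapped (log2 fold change -0.07, 95% interval -0.26 to 0.12, adjusted p = 0.490).

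Besides Synpo, the actin and phosphatase regulators held Ppp1r1b, Sorbs2 and Ppp1r9b. Ppp1r1b encodes DARPP-32, the phosphatase inhibitor of dopamine-responsive neurons, and went from 29.7 and 25.3 FPKM to 66.7 and 82.2 (log2 fold change 1.35, SE 0.11, adjusted p = 1.21e-07). Sorbs2, an actin adaptor gene also known from muscle, had 1.30 and 1.15 FPKM against 1.55 and 1.94 (0.42, SE 0.12, adjusted p = 0.00513), and its call was lost in each limma fit and without Ezh2 cKO replicate 2 (0.27). Ppp1r9b encodes spinophilin, which targets protein phosphatase 1 to spines, and was the most abundant of the 36 genes in Ezh2 f/f. Its FPKM was 179.5 and 188 in Ezh2 f/f, against 198 and 181 in Ezh2 cKO, and the groups overlapped (log2 fold change -0.04, 95% interval -0.21 to 0.13, adjusted p = 0.678). Synpo and Ppp1r9b, both tied to spine actin, therefore marked opposite ends: a gene at low level that rose about 10.1-fold and an abundant gene whose interval excluded a change of more than 0.21 on the log2 scale in either direction.

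Gphn encodes gephyrin, the scaffold of inhibitory synapses, and was included as the counterpart of the excitatory scaffolds. It went from 7.11 and 7.57 FPKM to 14.5 and 16.9 (log2 fold change 1.01, SE 0.11, adjusted p = 1.38e-06), close in size to Dlg4. On the other strand, Gm48226 overlaps it and did not pass the threshold (log2 fold change -0.18). Of the genes for proteins that travel from synapse to nucleus, Nsmf, for the messenger Jacob, went from 99.8 and 96.3 FPKM to 202 and 178 (0.87, SE 0.09, adjusted p = 6.42e-07). Prr7, a membrane protein of the postsynaptic density, had 62.1 and 55.6 FPKM against 61.2 and 57.1, with overlapping groups (log2 fold change -0.08, 95% interval -0.29 to 0.14, adjusted p = 0.517).

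Other genes of the postsynaptic density and spine were taken from a list of 55, which does not hold the 36. Of these, 29 were higher (52.7%, against 34.7% of all genes tested) and 14 lower (25.5%, against 33.6%). Their median log2 fold change was 0.31, beside 0.85 for the 36 genes and 0.02 over all genes tested. With at least a 2-fold change, 19 of the 55 were higher and 2 of the 55 lower. Of all genes tested, 19.0% were higher by that rule, and the share lower by it was not computed. The 4 with the largest rise were Cap2, Rgs14, Nrgn and Actn2. Cap2, for a cyclase-associated regulator of actin, had 0.961 and 0.901 FPKM against 11.4 and 13.6 (log2 fold change 3.65). Nrgn, for the calmodulin-binding protein neurogranin, had 163 and 138 FPKM against 1406 and 1339 (log2 fold change 3.11). The log2 fold change was 3.54 for Rgs14 and 2.65 for Actn2, an alpha-actinin gene. The 4 with the largest fall were Arhgef7, for the Rac activator beta-PIX (34.1 and 30.6 FPKM against 15.6 in both Ezh2 cKO libraries, log2 fold change -1.14), Cdh2, for N-cadherin (-1.10), Git1, for the partner of beta-PIX (91.6 and 90.9 FPKM against 52.5 and 48.8, -0.93), and Lrrc4b (-0.91). Adjusted p-values of these 8 genes in edgeR ran from 1.81e-11 for Nrgn to 5.96e-07 for Cdh2.

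The deposited annotation gave 2 broader groups. The Gene Ontology term postsynaptic density was attached to 306 genes, 24 of them members. Of the other 282, 238 were tested, and 134 were higher and 52 lower, with a median log2 fold change of 0.38. The term dendritic spine was attached to 223 genes, 11 of them members, and of the 174 others tested 90 were higher and 38 lower, with a median of 0.36. In both groups the share higher (56.3% and 51.7%) exceeded that of all genes tested and lay below the 83.3% of the 36 genes.

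Markers of cell types were read in the same libraries, since the source of the members' reads was not tested. The counts of called genes in each list stand beside 34.7% higher and 33.6% lower among all genes tested. The 10 mature neuron markers, among them Syp and Syn1 for synaptic vesicle proteins, were all higher, with log2 fold changes from 0.53 to 2.61 and a median of 1.42. Their summed FPKM was 252 and 282 in Ezh2 f/f, against 781 and 799 in Ezh2 cKO. Set beside that median, 9 of the 36 genes had a larger change and 27 a smaller one, and Icam5, Synpo, Ddn and Thy1 lay above the largest of the 10 markers, Syt1. Young neuron markers went the other way, with 7 of 10 lower and 2 higher. Tubb3, a neuronal tubulin gene, had 1859 and 1897 FPKM against 1223 and 1207, and Nnat, for neuronatin, 1381 and 1579 against 379 and 389. The summed FPKM of that list was 5263 and 5709 in Ezh2 f/f, against 3807 and 3849.6 in Ezh2 cKO, so neuronal transcripts were abundant in both groups of bead-isolated cells.

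Excitatory neuron markers were mixed, with 2 of 8 higher (25%, against 34.7% of all genes tested) and 4 lower (50%, against 33.6%). Slc17a7, a vesicular glutamate transporter of mature excitatory neurons, had 24.3 and 20.7 FPKM against 264 and 252 (log2 fold change 3.44, beside 3.29 for Ddn), while Neurod6 had 121 and 117 against 57.6 in both. The summed FPKM of the 8 was 311 and 277 against 415 and 403. Inhibitory neuron markers were 2 of 8 higher, Sst and Slc32a1, and 4 lower, and summed to 358 and 307 against 425 and 418.

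Among glia, 8 of 10 astrocyte markers were higher and 0 lower (summed FPKM 117 and 119 against 422 and 388), with Aldoc the most abundant. Aldh1l1, the gene whose promoter drives Cre, was not past the threshold (log2 fold change -0.15). All 6 oligodendrocyte precursor markers (51.2 and 51.1 against 179 and 157, led by Olig1 and Olig2), all 6 oligodendrocyte markers (13.3 and 16.6 against 146 and 128, led by Mbp and Cnp) and all 6 microglia markers (24.3 and 24.9 against 80.9 and 73.1, led by C1qa and Csf1r) were higher. Endothelial markers, led by Cldn5 and Cdh5, were 1 of 6 higher and 1 lower (101 and 96.1 against 106 and 91.9), and progenitor and cycling markers, led by Nes and Hes5, 1 of 6 higher and 5 lower (28.1 and 32.8 against 19.9 and 17.3). No marker was at 0 in all 4 libraries, and Mobp, an oligodendrocyte marker, was at 0 in 1 Ezh2 f/f library. These lists differed between the groups as well, and their part in the members' values was not tested.

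**Figure D4:**
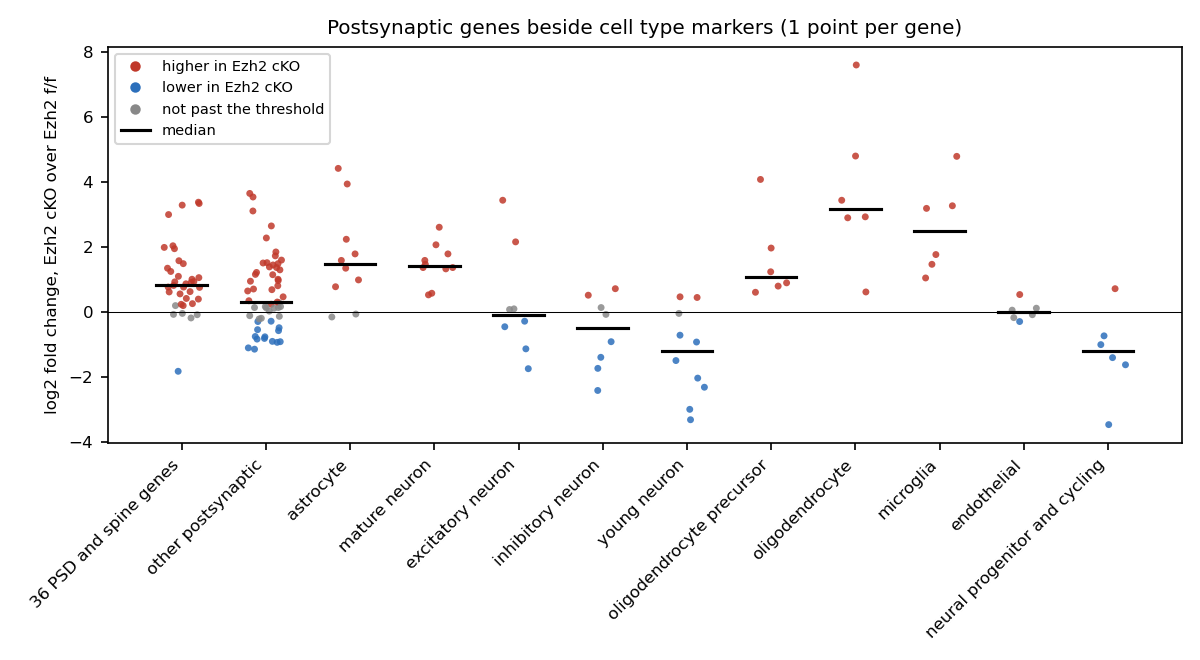
Log2 fold change, Ezh2 cKO over Ezh2 f/f, of each gene (1 point per gene, colour by call, black line at the median) in the 36 postsynaptic density (PSD) and spine genes, the 55 other postsynaptic genes and the 10 lists of cell type markers. The median of the 36 genes, 0.85, lies below that of the mature neuron list, 1.42, and above that of the young neuron list, -1.21.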

How the data were processed

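RNA was measured in 4 libraries of bead-isolated cortical cells, with 2 of each genotype. The authors deposited a raw read count for each of 29224 genes and FPKM values, which equal the count divided by gene length and total counts. Per the labels, Bowtie2 2.2.3, TopHat2 2.0.12, HTSeq 0.6.0 and mm9 were used, with no role or order given. Columns of the authors' own comparison (mean signal, fold change of Ezh2 f/f over Ezh2 cKO, p-values) were not used. Genes were kept by filterByExpr, normalized by the TMM method (factors 0.967 to 1.040) and tested in edgeR 4.0.16 (R 4.3.3) with group as the only term. The common biological coefficient of variation was 0.0953. With 2 libraries per group, no permutation test of a single gene can reach the threshold, so p-values come from models across all genes. Intervals are 95% intervals of the log2 fold change. DESeq2 1.42.0, limma 3.58.1 on log2(FPKM + 1) and log2(FPKM + 0.1), other scalings and filters, a gene length correction, the replicate number as a block and each library left out in turn were alternatives. In simulated data for this comparison (16414 genes tested by edgeR), edgeR recovered 200 of 200 changed genes with 9 false calls. The simulation gave every gene the same biological coefficient of variation and changed only well-counted genes, each by at least 2-fold. Far more genes were called in the real data, many with smaller changes, so it does not give the error rate of those calls. Members and lists were chosen with earlier results of these data known. All 36 members are named, with the 4 other postsynaptic genes of largest rise and of largest fall and the 2 most abundant genes of each marker list, of which 1 is not reported here; Syt1 and Aldh1l1 were named after their values were seen. An opposite-strand gene overlaps 17 of the 36; relative to the member, the most counted are those at Homer3, Lin7b and Gphn.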

Additional observations from a re-analysis of the deposited data

How the results depend on the processing

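Across 14 alternative fits, between 27 and 31 of the 36 genes were higher and 1, Homer3, was lower in each. In the main fit, 34.7% of all genes tested were higher and 33.6% lower. Those shares were not computed under the other fits, so the counts given for them lack that background. For 27 of the 36 genes the direction and the side of the threshold did not change under any fit. With a required change of at least 2-fold, 14 of the 36 members were higher, against 19.0% of all genes tested. Of the 55 other postsynaptic genes, 19 were higher and 2 lower by that rule. The members' median of 0.85 became 0.92 with upper-quartile scaling, 0.77 with limma on log2(FPKM + 1) with or without the filter, and 0.93 with limma on log2(FPKM + 0.1). It ranged from 0.80 to 0.88 as each library was left out, and the log2 fold change of Ddn from 3.17 to 3.40. Signs changed only for genes not called in any of these fits. Begain came to 0.0041 with upper-quartile scaling and to 0.01 in each of the 3 limma fits, and ranged from -0.14 to 0.0005 as each library was left out, the latter without Ezh2 cKO replicate 2. Ppp1r9b came to 0.04 in those same 5 fits and ranged from -0.12 to 0.04 as each library was left out, and Prr7 to 0.01 in the 3 limma fits. FPKM values, with the sums and group separations drawn from them, do not carry the TMM factors. These factors were 0.976 and 0.967 in Ezh2 f/f, against 1.019 and 1.040 in Ezh2 cKO. The part of that scaling in the sign changes was not tested. Across the genes tested, the difference between the Ezh2 f/f replicates correlated at 0.130 with the difference between the Ezh2 cKO replicates. That value does not decide whether same-numbered libraries were paired, and the main fit kept group as its only term. With the replicate block, 29 members were higher and 1 lower, with a median of 0.85 and Ddn at 3.29, and 28 other postsynaptic genes were higher and 14 lower. Calls for Dlgap4, Iqsec1, Shank1, Shank2, Sorbs2 and Homer1 depended on the fit; that of Homer1 was lost in 1, limma without the filter (log2 fold change 0.44). The least counted members, Lin7a and Dlgap2, had the widest intervals.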
